A study of Mus musculus with 6 samples.

Results

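Type I interferon signalling runs through a short chain of proteins, and the genes for 9 of them were followed here in mouse embryonic stem cells: the receptor chains Ifnar1 and Ifnar2, the kinases Jak1 and Tyk2, the signal transducer Stat2, and the interferon regulatory factors Irf9, Irf7, Irf1 and Irf3. They were chosen by name, and all 9 had a probe set that carried their symbol alone, among 19938 such genes on the array. Irf1 had 2 such probe sets, and the one with the higher mean over the arrays was used. The study compared 3 lines that its labels call chromosome transfer embryonic stem cells, ♂M-1, ♂M-3 and ZM-1, with 2 biological repeats each and 6 arrays in all. The labels give no age, strain, genotype or meaning for the prefixes. Cells of all 3 lines had been kept on gelatin with LIF, CHIR99021, which inhibits GSK3β, and PD0325901, which inhibits MEK, and no interferon treatment is named. Each name stands for a single line, so a difference between lines and a difference between kinds of line cannot be told apart.

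As background, type I interferons bind a receptor made of IFNAR1 and IFNAR2, which carry the kinases TYK2 and JAK1. The kinases activate STAT proteins, and STAT2 joins IRF9 in the complex ISGF3, which binds the interferon-stimulated response element (ISRE) of antiviral genes. IRF3 is made constitutively and is activated by nucleic acid sensors, IRF7 is itself induced by interferon and amplifies its production, and IRF1 is induced through gamma-activated sites (GAS). Mouse embryonic stem cells are known for a weak interferon response, and they use JAK1 in another way, to signal from LIF to STAT3.

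Promoters are shown for Irf7, lower in both ♂M lines relative to ZM-1, and for Stat2, lower in ♂M-1 relative to both other lines. Irf1 is shown because it carries the other kind of element. The windows run from 250 bases before to 50 bases after the annotated start and come from RefSeq on GRCm38.p6, where 11 windows were found for the 9 genes. Irf7 lies at chr7:141266375-141266674 on the minus strand, Stat2 at chr10:128270248-128270547 on the plus strand, and Irf1, at the first of its 2 starts, at chr11:53769764-53770063 on the plus strand. Each is written 5′ to 3′ along the gene, and capitals mark a match to the ISRE core GAAANNGAAA or to the GAS TTCNNNGAA, searched on both strands.
Irf7: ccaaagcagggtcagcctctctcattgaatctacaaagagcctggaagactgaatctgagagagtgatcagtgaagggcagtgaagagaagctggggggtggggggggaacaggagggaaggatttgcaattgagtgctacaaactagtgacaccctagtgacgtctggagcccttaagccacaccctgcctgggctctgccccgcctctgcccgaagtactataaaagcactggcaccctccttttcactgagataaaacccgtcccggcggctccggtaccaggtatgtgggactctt
Stat2: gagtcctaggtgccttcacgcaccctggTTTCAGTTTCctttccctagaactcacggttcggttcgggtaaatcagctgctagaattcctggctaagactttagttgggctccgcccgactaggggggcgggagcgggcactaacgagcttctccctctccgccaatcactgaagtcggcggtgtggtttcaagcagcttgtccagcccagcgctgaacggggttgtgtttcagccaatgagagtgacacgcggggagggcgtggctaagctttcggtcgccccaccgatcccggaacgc
Irf1: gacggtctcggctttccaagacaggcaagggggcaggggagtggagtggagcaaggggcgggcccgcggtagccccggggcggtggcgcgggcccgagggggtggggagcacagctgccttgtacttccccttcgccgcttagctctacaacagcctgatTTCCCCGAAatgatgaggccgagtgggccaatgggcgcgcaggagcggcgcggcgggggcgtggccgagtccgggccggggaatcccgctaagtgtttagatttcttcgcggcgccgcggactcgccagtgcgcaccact
The match in Stat2 was an ISRE core, read as TTTCAGTTTC on the plus strand and starting 222 bases before the start site. The match in Irf1 was the GAS TTCCCCGAA, 90 bases before the start site. Ifnar2 had the GAS TTCCTGGAA 214 bases before its start site, and Ifnar1 had TTCACGGAA 5 bases before its own. Neither set of letters occurred in the windows of Irf7, Irf9, Jak1, Tyk2 and Irf3, nor at the second start of Irf1, and no 2 matches overlapped. The ISRE core was found in 3.44% of all 32851 RefSeq windows of this length and the GAS in 8.3%. Among windows of genes listed as known targets of ISGF3, 11 of 24 held the ISRE core and 7 of 24 the GAS. Among those of listed IRF1 and GAS targets, 7 of 18 held the ISRE core and 3 of 18 the GAS. A match is a run of letters and not a measured site, and its absence says only that these letters are not in the window.

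Values are intensities on a linear scale, as deposited, and the 6 arrays had nearly the same distribution, with medians between 67.2 and 71.3 and lower quartiles between 23.8 and 25.1. Markers of pluripotent cells were present in every array, and their 12 intensities summed to between 25461 and 26517 in ♂M-1, 28513 and 29252 in ♂M-3, and 25539.7 and 25859 in ZM-1. None of the 9 pathway genes lay below the lower quartile in any array. Differences between lines are log2 differences of intensity plus 1, tested with limma over all 19938 genes with Benjamini-Hochberg adjustment, and a gene is said to differ, rise or fall where its adjusted p was below 0.05. The arrays measured RNA from whole cultures, so fewer cells with a transcript and less of it per cell cannot be told apart.

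The differences that passed lay in Irf7, Irf9, Stat2 and Ifnar2, and none in Ifnar1, Jak1, Tyk2, Irf1 or Irf3. In ♂M-1 relative to ZM-1, 3 of 9 genes were lower, Irf7, Irf9 and Stat2, and 0 were higher, where 4.42% of all genes passed the test, 2.53% as lower and 1.9% as higher. In ♂M-3 relative to ZM-1, 3 of 9 were lower, Irf7, Irf9 and Ifnar2, and 0 were higher, against 15.9% of all genes, 7.2% as lower and 8.66% as higher. Between ♂M-1 and ♂M-3 only Stat2 passed, lower in ♂M-1, where 6.54% of all genes passed, 3.32% as lower and 3.22% as higher. Median log2 differences of the 9 genes were −0.24 for ♂M-1 versus ZM-1, −0.12 for ♂M-3 versus ZM-1 and −0.03 for ♂M-1 versus ♂M-3, beside −0.01, 0.00 and −0.02 for all genes. Both comparisons with ZM-1 use the same ZM-1 arrays, so they are not independent of each other.

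**Figure D1:**
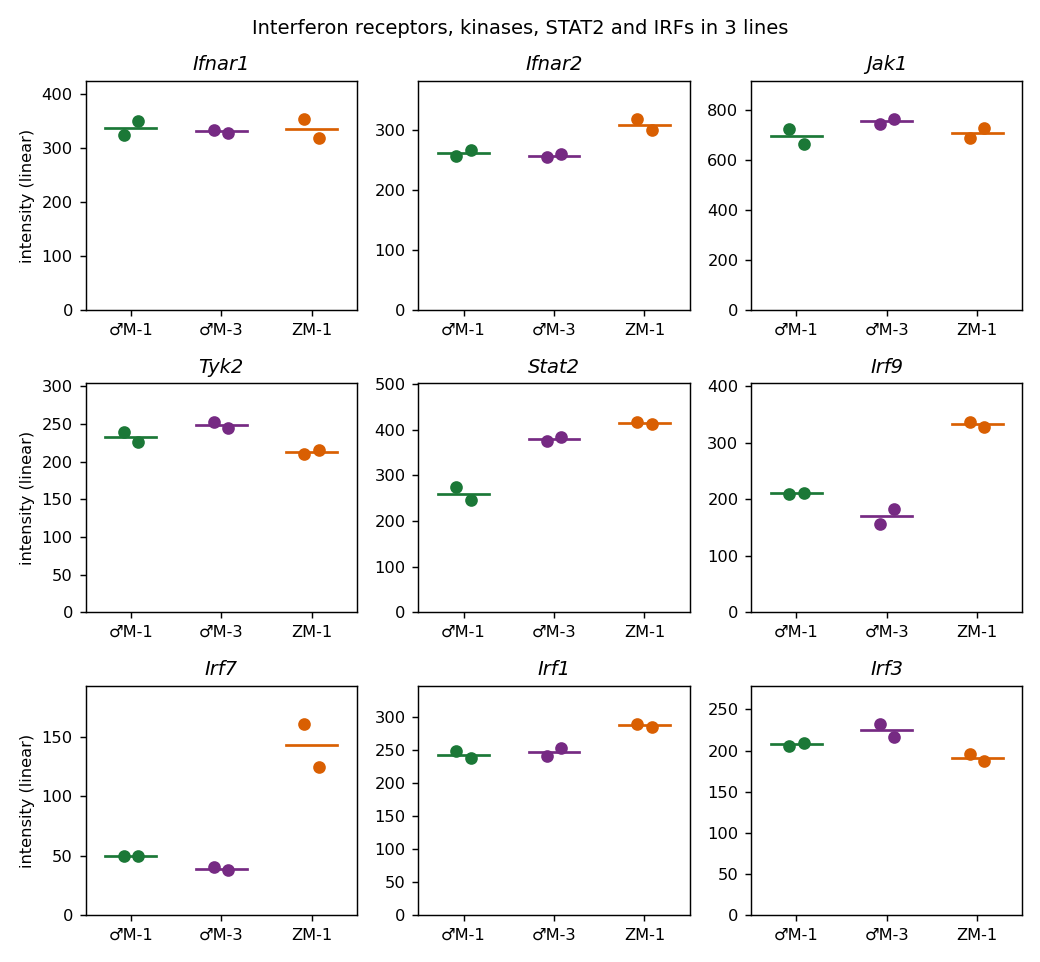
Intensity on a linear axis from 0 for the 9 genes, with a point per array and a line at the mean of the 2 repeats of ♂M-1, ♂M-3 and ZM-1. Irf7 and Irf9 sit lower in ♂M-1 and ♂M-3 relative to ZM-1, Stat2 sits low in ♂M-1 alone among the 3 lines, and Ifnar1 has overlapping arrays in all 3.

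The receptor chains were the first level of the pathway. Ifnar1, the chain that carries TYK2, measured 325 and 350.2 in ♂M-1, 334 and 329 in ♂M-3, and 354 and 319 in ZM-1. The arrays of all 3 lines overlapped. Its log2 difference was 0.01 for ♂M-1 versus ZM-1 (95% interval −0.18 to 0.20), −0.02 for ♂M-3 versus ZM-1 (−0.21 to 0.17) and 0.03 for ♂M-1 versus ♂M-3 (−0.16 to 0.21). Ifnar2, the chain that carries JAK1, measured 256 and 267 in ♂M-1, 255 and 260.2 in ♂M-3, and 318 and 299.9 in ZM-1. Every ♂M array lay below both ZM-1 arrays, and the arrays of ♂M-1 and ♂M-3 overlapped. Ifnar2 was lower in ♂M-3 relative to ZM-1 (log2 difference −0.26 ± 0.08 SE, adjusted p = 0.0467), and in ♂M-1 the difference from ZM-1 was of like size but did not pass (−0.24 ± 0.08 SE, adjusted p = 0.120). The ♂M-3 call was lost when any 1 of the 6 arrays was left out, and it held in 6 of 15 alternative analyses, with adjusted p down to 0.0138. Among these 15, leaving out either ♂M-1 array gave the same fit as ♂M-3 and ZM-1 alone (adjusted p = 0.0662).

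The kinases came next. Jak1 measured 724 and 666 in ♂M-1, 745 and 764 in ♂M-3, and 688 and 727 in ZM-1. Its adjusted p was 0.894 for ♂M-1 versus ZM-1, 0.487 for ♂M-3 versus ZM-1 and 0.479 for ♂M-1 versus ♂M-3, and its 95% intervals stayed between −0.30 and 0.27 log2 units. Tyk2, the other kinase of the receptor, measured 239 and 225 in ♂M-1, 253 and 244 in ♂M-3, and 209 and 215 in ZM-1. All ♂M arrays lay above those of ZM-1, but the difference did not pass for ♂M-1 (0.13 ± 0.08 SE, adjusted p = 0.387) or ♂M-3 (0.23 ± 0.08 SE, adjusted p = 0.0746). For ♂M-3 the Tyk2 difference passed in 3 of 15 alternative analyses, with adjusted p between 0.0253 and 0.280.

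Stat2 and Irf9, whose proteins bind each other in ISGF3, did not follow the same order of lines. Stat2 measured 275 and 245 in ♂M-1, 376 and 384 in ♂M-3, and 417 and 411 in ZM-1. The ♂M-1 arrays lay below all others, and those of ♂M-3 lay just below those of ZM-1. It was 1.59-fold lower in ♂M-1 relative to ZM-1 (log2 difference −0.67 ± 0.08 SE, adjusted p = 0.00257) and 1.46-fold lower in ♂M-1 relative to ♂M-3 (−0.55 ± 0.08 SE, adjusted p = 0.00526). Between ♂M-3 and ZM-1 the difference was −0.12 (95% interval −0.31 to 0.06, adjusted p = 0.357). The call between ♂M-1 and ♂M-3 failed if ♂M-1 replicate 2 (adjusted p = 0.0596) or ♂M-3 replicate 2 (0.0510) was left out, and held in the other 13 of 15 alternatives, down to 1.84e-04, while that between ♂M-1 and ZM-1 held in all 15.

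Irf9, the DNA-binding subunit of ISGF3, measured 209.7 and 211 in ♂M-1, 157 and 183 in ♂M-3, and 337 and 328 in ZM-1. The lines did not overlap, and the order was ♂M-3, ♂M-1, ZM-1 from low to high. Irf9 was 1.58-fold lower in ♂M-1 relative to ZM-1 (log2 difference −0.66 ± 0.09 SE, adjusted p = 0.00446) and 1.96-fold lower in ♂M-3 relative to ZM-1 (−0.97 ± 0.09 SE, adjusted p = 2.00e-04). The neighbours in that order, ♂M-1 and ♂M-3, did not pass (0.31 ± 0.09 SE, adjusted p = 0.0796), though they did in 3 of 15 alternatives, with adjusted p between 0.0244 and 0.405. Without ♂M-1 replicate 2 the call of ♂M-1 versus ZM-1 failed at adjusted p = 0.0527, with a log2 difference of −0.66, and it held in the other 14 alternatives, down to 1.71e-04.

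Irf7, the factor that amplifies interferon production, had the largest difference of the 9 genes. It measured 49.83 and 49.99 in ♂M-1, 40.1 and 37.4 in ♂M-3, and 161 and 125 in ZM-1. Both ♂M lines lay far below ZM-1, and ZM-1 had the widest spread between repeats (143 ± 25.4, SD, n = 2). Irf7 was 2.80-fold lower in ♂M-1 relative to ZM-1 (log2 difference −1.49 ± 0.11 SE, adjusted p = 1.84e-04) and 3.59-fold lower in ♂M-3 relative to ZM-1 (−1.84 ± 0.11 SE, adjusted p = 2.82e-05). These calls held in all 14 alternatives that kept the gene, with log2 differences between −1.67 and −1.26 for ♂M-1 and between −2.02 and −1.53 for ♂M-3. Between ♂M-1 and ♂M-3 the difference was 0.36 ± 0.11 SE (adjusted p = 0.112). It passed by limma when these lines were fitted without ZM-1 (adjusted p = 0.0265). Leaving out either ZM-1 array gave that same fit, since a line with 1 array adds nothing to the estimated spread. In the alternatives that kept both ZM-1 arrays it did not pass.

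Irf1 and Irf3 passed in no comparison. Irf1, which is induced through GAS elements and drives antigen presentation genes, measured 248 and 239 in ♂M-1, 242 and 254 in ♂M-3, and 289.7 and 286 in ZM-1. All ♂M arrays lay below both of ZM-1, but the difference passed neither for ♂M-1 (−0.24 ± 0.07 SE, adjusted p = 0.113) nor for ♂M-3 (−0.22 ± 0.07 SE, adjusted p = 0.0835). The second Irf1 probe set, which rests on a single cDNA entry, measured 50.02 and 57.04 in ♂M-1, 60.3 and 55.0 in ♂M-3, and 58.5 and 55.6 in ZM-1, with overlapping arrays, and so did not show the order of the first. Irf3, the constitutive factor activated by sensors, measured 206 and 209.7 in ♂M-1, 232 and 217 in ♂M-3, and 196 and 187 in ZM-1. It lay above ZM-1 in all ♂M arrays, the opposite side from Irf7, and did not pass for ♂M-1 (0.12 ± 0.08 SE, adjusted p = 0.446) or ♂M-3 (0.23 ± 0.08 SE, adjusted p = 0.0780). In the ♂M-3 comparison both Irf1 and Irf3 passed in 3 of 15 alternatives.

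**Figure D2:**
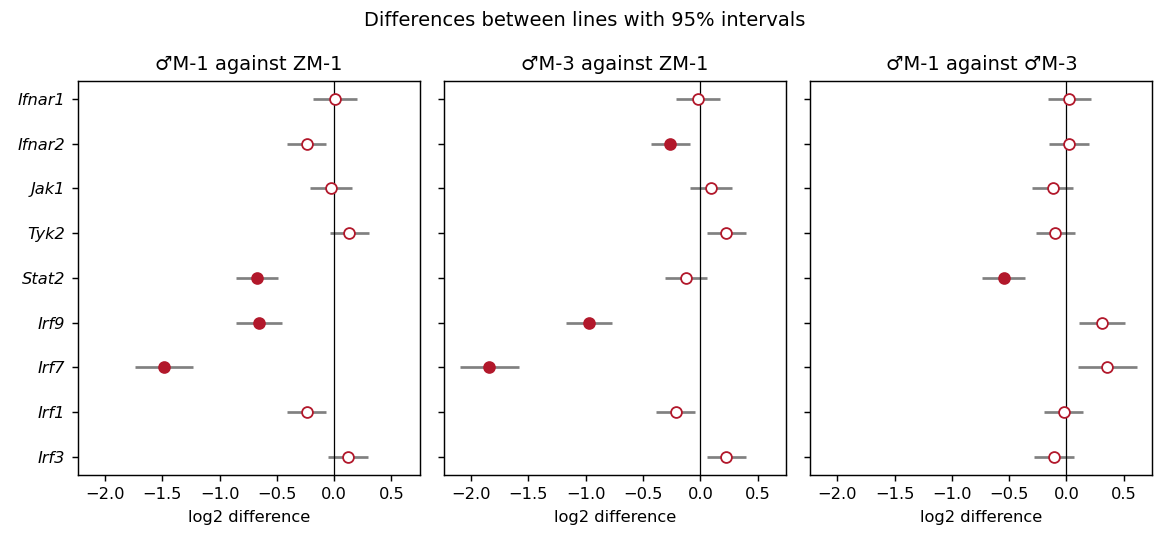
Log2 differences of the 9 genes with 95% intervals from the limma fit, for ♂M-1 versus ZM-1, ♂M-3 versus ZM-1 and ♂M-1 versus ♂M-3, with filled points where adjusted p was below 0.05. Irf7 and Irf9 are filled and negative in both comparisons with ZM-1, and Stat2 is filled in both comparisons that involve ♂M-1.

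The arrays of the lines often did not overlap, also where a difference failed the test. The counts that follow take passed and failed differences together. The arrays of the compared lines did not overlap in 7 of 9 genes for ♂M-1 versus ZM-1, 8 of 9 for ♂M-3 versus ZM-1 and 6 of 9 for ♂M-1 versus ♂M-3. Over all genes the arrays of the lines did not overlap in 48.9%, 57.5% and 50.5%, so with 2 repeats a line the lack of overlap says little by itself. Before adjustment 5, 6 and 3 of the 9 genes had p below 0.05, beside 20%, 30% and 19.8% of all genes.

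Profiles over the 6 arrays, each gene's log2 values minus their mean, gave a distance between genes, which depends on how much each gene varies as well as on the order of the lines. Tyk2 and Irf3 were 0.05 log2 units apart by root mean square difference, and Ifnar2 and Irf1 also 0.05, and these 4 genes varied little. Irf9 and Irf7, which had the same order of lines, were 0.42 apart, Irf9 and Stat2, which did not, 0.41, and Irf7 and Stat2 0.71. Among 9729 genes above the median level, the closest to Irf7 were Zbp1, a sensor of unusual nucleic acids (0.14), Parp12, an ADP-ribosyltransferase (0.18), and Syne2, a nuclear envelope spectrin-repeat protein (0.22). Irf7 itself varied by 0.81 around its mean. Zbp1 averaged 83.4 ± 0.981 for ♂M-1, 74.3 ± 2.05 for ♂M-3 and 288 ± 22.6 for ZM-1 (SD, n = 2 each). The closest to Irf9 were Tent5a, a poly(A) polymerase (0.05), Tapbp, the tapasin chaperone that helps load MHC class I (0.07), and Bst1, an ADP-ribosyl cyclase (0.07), with 0.41 for Irf9 around its own mean.

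Stat2 had other companions. The closest were Adamts9, a secreted metalloprotease (0.07), Pde8a, a cAMP phosphodiesterase (0.07), and Gng2, a G protein gamma subunit (0.08), against 0.30 for Stat2 around its mean. Adamts9 averaged 364 ± 18.2 for ♂M-1, 487 ± 2.41 for ♂M-3 and 539 ± 32.8 for ZM-1 (SD, n = 2 each). Each of these 3 genes was lower in ♂M-1 relative to ZM-1 and relative to ♂M-3, and none passed between ♂M-3 and ZM-1. The ♂M-1 calls of Adamts9 and Gng2 were lost in both comparisons without ♂M-1 replicate 2, with adjusted p between 0.0608 and 0.146, and so were those of Pde8a (0.0995 and 0.217). Against ♂M-3 those of Adamts9 and Pde8a also failed without either ♂M-3 array (0.102 to 0.170), and Pde8a against ZM-1 without ZM-1 replicate 1 (0.0527). For Ifnar2, which varied by only 0.12 around its mean, the closest were Blvrb, a biliverdin reductase (0.02), Zpr1, a zinc finger protein (0.02), and Grb2, an adaptor of growth factor receptors (0.03). These are likenesses over 6 arrays and carry no test.

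The 2 receptor genes lie close together on chromosome 16, and they have cytokine receptor genes and others as neighbours. In RefSeq gene order, counting protein-coding genes, Olig2, Olig1, Ifnar2, Il10rb, Ifnar1, Ifngr2, Tmem50b and Dnajc28 follow one another. Olig2 and Olig1, transcription factors of oligodendrocyte precursors, lay low in ♂M-3: Olig2 measured 189 and 242 in ♂M-1, 49.95 and 52.44 in ♂M-3, and 163 and 160.3 in ZM-1. Olig1 measured 146 and 152 in ♂M-1, 52.9 and 62.0 in ♂M-3, and 156 and 136 in ZM-1. Their log2 differences for ♂M-3 versus ZM-1 were −1.64 (adjusted p = 4.55e-05) and −1.33 (8.02e-05), and for ♂M-1 versus ♂M-3 2.04 (5.13e-05) and 1.36 (1.73e-04), and these calls held in all 15 alternatives. Both genes were singled out after their values were seen.

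Genes for 2 more receptor chains lie in that stretch. Ifngr2, a chain of the interferon gamma receptor, averaged 332 ± 13.7 for ♂M-1, 248 ± 19.6 for ♂M-3 and 329.8 ± 6.48 for ZM-1 (SD, n = 2 each). It was 1.33-fold lower in ♂M-3 relative to ZM-1 (adjusted p = 0.0118), a call that failed without ♂M-3 replicate 1 (0.0934), and 1.34-fold higher in ♂M-1 relative to ♂M-3 (0.0199), a call that failed without either ♂M-1 array or ♂M-3 replicate 1 (0.0629 to 0.158). Il10rb, a chain shared by receptors of IL-10 and interferon lambda, averaged 58.5 ± 1.98 for ♂M-1, 50.1 ± 2.37 for ♂M-3 and 66.7 ± 1.15 for ZM-1. It was 1.33-fold lower in ♂M-3 relative to ZM-1 (adjusted p = 0.00838), lost without ♂M-3 replicate 1 (0.0710). Tmem50b differed the other way, at 623 ± 29.3 in ♂M-3 and 422 ± 47.9 in ZM-1 (log2 difference 0.57, adjusted p = 0.00730), a call that failed without ♂M-3 replicate 2 (0.0587). In all, 5 of the 6 nearest neighbours of Ifnar1 and 4 of the 6 of Ifnar2, sets that overlap, passed between ♂M-3 and ZM-1, against 15.9% of all genes. Without ♂M-3 replicate 1 both counts fell, and without ♂M-3 replicate 2 that of Ifnar1 fell and that of Ifnar2 did not. Fewer of all genes passed in those fits as well, so the share of 15.9% does not apply to them. The 5 counted for Ifnar1 include Ifnar2 itself. Of the same sets, 0 of 6 and 0 of 6 passed between ♂M-1 and ZM-1, where 4.42% of all genes did. Between ♂M-1 and ♂M-3, 2 of 6 and 3 of 6 passed, where 6.54% of all genes did.

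**Figure D3:**
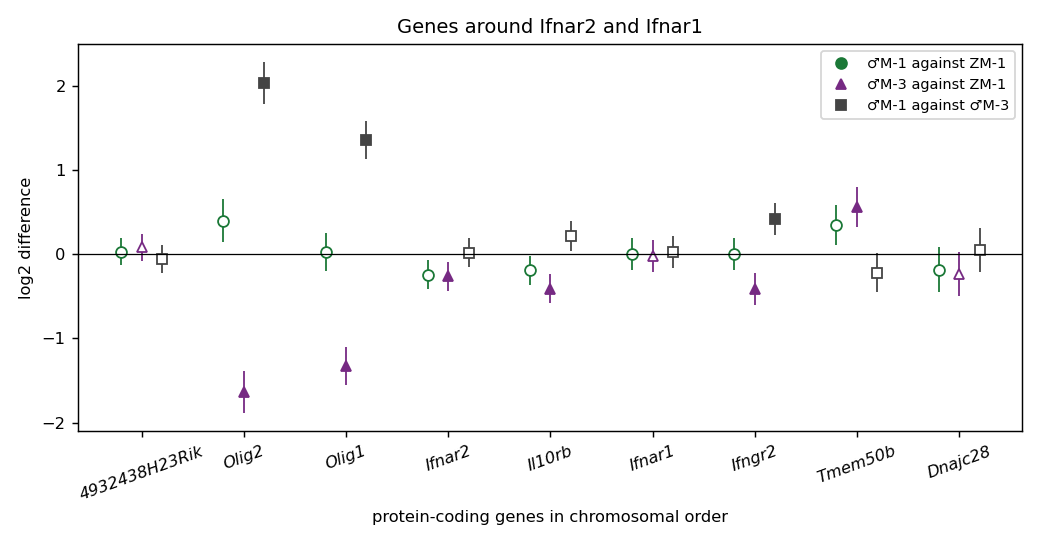
Log2 differences with 95% intervals for 9 protein-coding genes around Ifnar2 and Ifnar1, in chromosomal order, for the 3 comparisons of lines, filled where adjusted p was below 0.05. Olig2, Olig1, Ifnar2, Il10rb and Ifngr2 are below 0 and filled for ♂M-3 versus ZM-1, Tmem50b is above 0 and filled, and Ifnar1 sits near 0 in all 3.

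Neighbours of the transcription factor genes were looked at in the same way. Over all genes, 4.42% passed for ♂M-1 versus ZM-1, 15.9% for ♂M-3 versus ZM-1 and 6.54% for ♂M-1 versus ♂M-3. Of 6 neighbours of Irf3, 2 passed between ♂M-3 and ZM-1, Cpt1c as lower and Prr12 as higher. That count fell when any 1 array was left out. Cpt1c also passed between ♂M-1 and ♂M-3, higher in ♂M-1. Of 6 neighbours of Irf1, Rad50 alone passed between ♂M-3 and ZM-1, lower in ♂M-3. Of the 6 nearest measured neighbours of Irf9, only Psme2, a subunit of the interferon-inducible proteasome activator, passed against ZM-1: it averaged 779 ± 33.3 for ♂M-1, 798 ± 117 for ♂M-3 and 1188 ± 39.5 for ZM-1 (SD, n = 2 each), with adjusted p = 0.0141 for ♂M-1 and 0.00647 for ♂M-3. The ♂M-1 call of Psme2 held in 12 of 15 alternatives and failed without either ♂M-1 array or ZM-1 replicate 1 (0.0510 to 0.103). Of 5 measured neighbours of Irf7, 0 passed between ♂M-1 and ZM-1 and 1 between ♂M-3 and ZM-1, Rassf7, which was higher in ♂M-3 (log2 difference 0.37, adjusted p = 0.0466), and the count was 0 without any 1 array other than ♂M-3 replicate 1. Of 6 neighbours of Stat2, 0 passed in either comparison of ♂M-1, and 1 passed between ♂M-3 and ZM-1, a count that was 0 if either ♂M-3 replicate 1 or else ZM-1 replicate 2 was left out.

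Upstream of the receptor, the interferon genes themselves gave little signal. Their counts below stand beside 4.42% of all genes that passed for ♂M-1 and 15.9% for ♂M-3, each relative to ZM-1. Of 16 measured ligands, 7 lay below the lower quartile in every array, among them Ifnb1, the first interferon that IRF3 induces in many cells, at 14.3 ± 0.689 for ♂M-1, 13.5 ± 0.911 for ♂M-3 and 15.2 ± 1.19 for ZM-1 (SD, n = 2 each). In ♂M-1 relative to ZM-1, 1 of 16 passed, Ifnl2, an interferon lambda, which was 1.33-fold higher (adjusted p = 0.0412), and this was lost when any 1 array was left out (0.0539 to 0.227). In ♂M-3 relative to ZM-1, Ifnl2 was 1.35-fold higher (adjusted p = 0.0149) and Ifna9 1.36-fold lower (0.0122), and the count of 2 fell to 0 without ♂M-3 replicate 1 and came to 4 without ZM-1 replicate 1. Between ♂M-1 and ♂M-3, 0 of 16 passed by limma, and 0 had p below 0.05 before adjustment.

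Other receptors, kinases, STATs, IRFs and IRF2-binding proteins came next. For these lists, 4.42% of all genes passed in ♂M-1 versus ZM-1 and 15.9% in ♂M-3 versus ZM-1. Of 9 other interferon and IL-10 family receptors, 0 passed in limma between ♂M-1 and ZM-1, with 1 at an unadjusted p below 0.05, and 3 passed between ♂M-3 and ZM-1, Ifngr2 and Il10rb as lower and Ifnlr1 as higher, a count that fell to 0 without ♂M-3 replicate 1. Of 6 other JAK and STAT genes, Stat4, which transmits IL-12 signals in lymphocytes, was the only call against ZM-1. It averaged 176 ± 3.67 for ♂M-1, 192 ± 0.543 for ♂M-3 and 292 ± 18.7 for ZM-1 (SD, n = 2 each), 1.65-fold lower in ♂M-1 (adjusted p = 0.00143) and 1.51-fold lower in ♂M-3 (0.00144). The last list held 7 genes: the factors Irf2, Irf4, Irf5 and Irf8, and Irf2bp1, Irf2bp2 and Irf2bpl, which are not IRFs themselves. Of these 7, 0 passed in limma for ♂M-1, with 3 at an unadjusted p below 0.05. For ♂M-3 Irf2bp1, an IRF2-binding corepressor, was 1.25-fold higher and Irf8, a myeloid factor, 1.22-fold lower. The Irf8 call was lost when any 1 array was left out, with adjusted p between 0.0536 and 0.233, and that of Irf2bp1 without either ♂M-3 array or ZM-1 replicate 1 (0.0752 to 0.143).

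Of 14 inhibitors of the pathway, 1 was lower in ♂M-1 relative to ZM-1, and 1 was lower and 3 were higher in ♂M-3. The shares of all genes that passed were 4.42% and 15.9%. Usp18, which binds IFNAR2 and blocks JAK1 there, measured 81.5 ± 5.72 for ♂M-1, 42.2 ± 4.08 for ♂M-3 and 651 ± 68.8 for ZM-1 (SD, n = 2 each). Its log2 difference was −2.98 in ♂M-1 and −3.92 in ♂M-3 relative to ZM-1, and it was 1.91-fold higher in ♂M-1 relative to ♂M-3 (adjusted p = 0.00120). It was the 1 inhibitor called in ♂M-1 versus ZM-1, a count that became 2 without ♂M-1 replicate 1 or without ZM-1 replicate 1. Socs1, which blocks JAK1 and TYK2, averaged 119 ± 5.65 for ♂M-1, 117 ± 3.56 for ♂M-3 and 128 ± 9.54 for ZM-1, with adjusted p of 0.553 for ♂M-1 and 0.344 for ♂M-3. In ♂M-3 relative to ZM-1, Socs3 was 1.49-fold higher, Pias3 1.27-fold and Cish 1.26-fold, and without either ♂M-3 array or ZM-1 replicate 2 the count of 4 fell to 2. The phosphatases Ptpn1, Ptpn2, Ptpn6 and Ptpn11 passed in no comparison.

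Of 20 measured activators of IRF3 and IRF7, 3 were lower in ♂M-1 and 5 in ♂M-3 relative to ZM-1, with 0 higher in either. Among all genes 4.42% and 15.9% passed in these comparisons, and 6.54% between ♂M-1 and ♂M-3. The lists overlap: Ifih1, Ddx58 and Dhx58, like the inhibitor Usp18, are also listed as targets of ISGF3. They are counted again there and are not separate results. Ifih1, Ddx58 and Dhx58, RNA sensors of the RIG-I family, were the 3 in ♂M-1, at 1.63-fold and 1.46-fold lower for Ifih1 and Ddx58 and −0.49 on the log2 scale for Dhx58, and without ♂M-1 replicate 1 or ZM-1 replicate 1 the count was 0. In ♂M-3 the log2 difference was −1.44 for Ddx58 and −0.86 for Dhx58, Ifih1 was 2.001-fold lower, and Sting1, the adaptor of DNA sensing, was 1.57-fold lower. Between ♂M-1 and ♂M-3, Ddx58 was 1.86-fold higher in ♂M-1 and Mavs, the mitochondrial adaptor, 1.27-fold lower, and the Mavs call did not hold without any 1 array of these lines (adjusted p 0.151 to 0.200). Tbk1, the kinase of IRF3, and Myd88, an adaptor of Toll-like receptors, did not pass in either comparison with ZM-1.

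Downstream of these genes lie their targets, whose counts stand beside 4.42% of all genes for ♂M-1 and 15.9% for ♂M-3, each relative to ZM-1. Of 32 measured targets of ISGF3, 27 were lower in ♂M-1 and 28 in ♂M-3 relative to ZM-1, with 0 higher, and the counts stayed between 19 and 26 and between 25 and 28 when 1 array was left out. Their median log2 difference was −0.86 in ♂M-1 and −1.01 in ♂M-3. Oas2, an oligoadenylate synthetase, averaged 73.4 ± 1.30 for ♂M-1, 72.3 ± 2.28 for ♂M-3 and 296 ± 17.1 for ZM-1 (SD, n = 2 each), while Cxcl10, a chemokine, and Mx1, an antiviral GTPase, did not pass. Mx1 was the only target below the lower quartile in every array, so its lack of a call says little. Of the 32 targets, 8 lay below the lower quartile in at least 1 array. Rsad2, another antiviral enzyme, averaged 32.1 ± 7.47 for ♂M-1, 30.7 ± 2.60 for ♂M-3 and 77.2 ± 0.735 for ZM-1. The list was drawn up with earlier results of the same arrays known, so their direction is not independent evidence.

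The line with the lowest Stat2, ♂M-1, was also compared with ♂M-3 over the targets. Between ♂M-1 and ♂M-3, 6 of the 32 targets were higher in ♂M-1 and 1 was lower, and the count of 7 was 3 if ♂M-1 replicate 2 was left out and 4 if ♂M-3 replicate 2 was. Xaf1, a proapoptotic interferon-induced gene, was the 1 that was lower, at 65.9 ± 5.80 in ♂M-1 and 87.8 ± 1.46 in ♂M-3. Ifi27 was 1.67-fold higher in ♂M-1 and Ifit1, which binds foreign RNA caps, 1.62-fold higher. The Ifit1 call failed without ♂M-1 replicate 2 or either ♂M-3 array. Ifit1 was near the floor, at 21.9 and 28.5 in ♂M-1 and 14.4 and 15.8 in ♂M-3. Of these arrays, only ♂M-1 replicate 2 had Ifit1 above its lower quartile. The 25 others did not pass, and 6.54% of all genes passed in this comparison.

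Targets of IRF1 and GAS elements passed in part. The shares of all genes were 4.42% for ♂M-1 versus ZM-1, 15.9% for ♂M-3 versus ZM-1 and 6.54% for ♂M-1 versus ♂M-3. Of 21 measured, 8 were lower in ♂M-1 and 12 in ♂M-3 relative to ZM-1, with 0 higher and medians of −0.30 and −0.58, and the ♂M-1 count came to 5 without ♂M-1 replicate 1 or ZM-1 replicate 1 and to 3 without ♂M-1 replicate 2. Gbp4, a guanylate-binding protein, was 2.06-fold lower in ♂M-1 and 2.91-fold in ♂M-3, and Gbp7 was 1.80-fold and 2.07-fold lower. Cd274, an immune checkpoint ligand, was 1.74-fold lower in ♂M-1, a call that failed without either ♂M-1 array or ZM-1 replicate 1 (adjusted p 0.0735 to 0.166), and Psmb9, an immunoproteasome subunit, was 1.93-fold lower in ♂M-3. Between ♂M-1 and ♂M-3, 6 of 21 were higher in ♂M-1, with Irgm1, an immunity-related GTPase, at 3.10-fold, Tap1, a peptide transporter, at 1.58-fold and B2m, the MHC class I light chain, at 1.56-fold. That count came to 3 without ♂M-1 replicate 2 or ♂M-3 replicate 2.

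**Figure D4:**
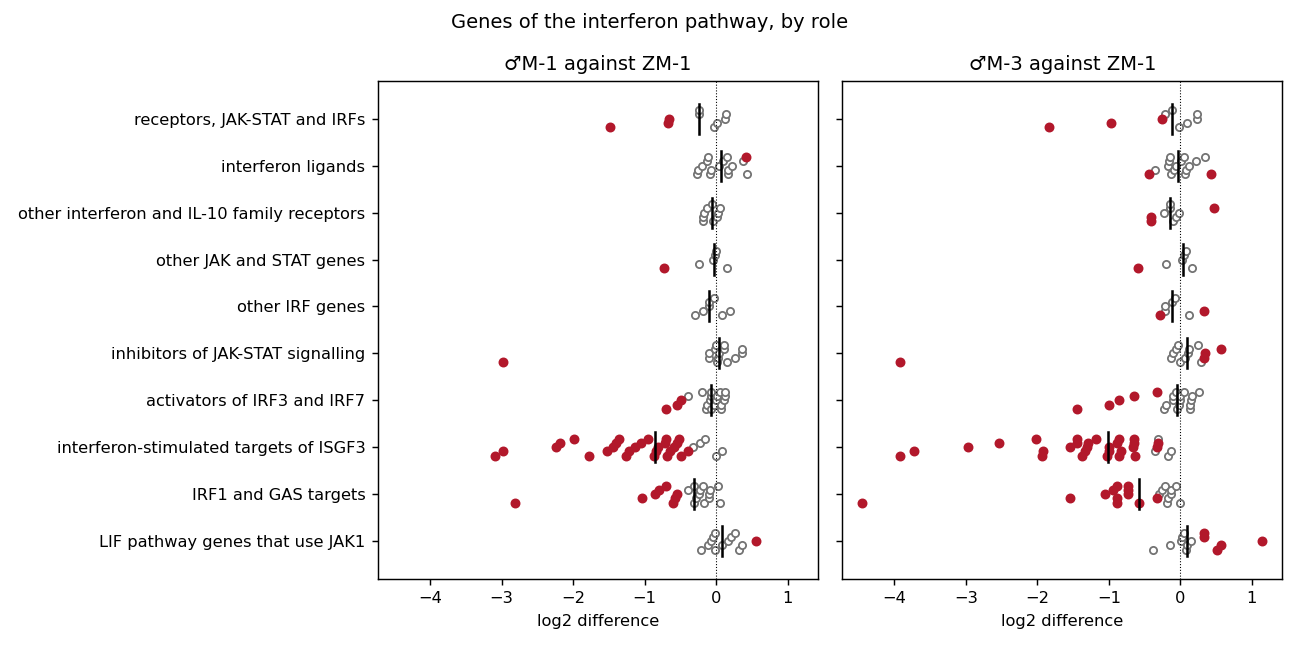
Log2 differences of each measured gene, by role in the pathway, for ♂M-1 versus ZM-1 and ♂M-3 versus ZM-1, with filled points where adjusted p was below 0.05 and a vertical bar at each list's median. The targets of ISGF3 have medians of −0.86 and −1.01, and the inhibitors have medians of 0.04 and 0.09.

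JAK1 also serves LIF. Of 13 measured genes of the LIF pathway, 1 was higher in ♂M-1 and 5 were higher in ♂M-3 relative to ZM-1, with 0 lower. Beside these stand 4.42% and 15.9% of all genes that passed in either direction. Socs3 and Cish are on this list and also among the inhibitors above. Bcl3, a STAT3 target, averaged 504 ± 33.0 for ♂M-1, 763 ± 44.0 for ♂M-3 and 343 ± 15.2 for ZM-1 (SD, n = 2 each), 1.46-fold higher in ♂M-1 and 2.22-fold in ♂M-3. The ♂M-1 call failed without ♂M-1 replicate 1 (adjusted p = 0.0732), and the ♂M-3 count fell to 3 without ♂M-3 replicate 1 and to 2 without ♂M-3 replicate 2. Stat3 itself averaged 1022 ± 7.74 for ♂M-1, 1069 ± 23.2 for ♂M-3 and 1051 ± 31.5 for ZM-1, and Lifr, the LIF receptor, did not pass in any comparison.

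Some markers of other cells also differed, and their counts can be set beside the shares of all genes that passed, 4.42% for ♂M-1 versus ZM-1, 15.9% for ♂M-3 versus ZM-1 and 6.54% for ♂M-1 versus ♂M-3. Of 12 blood and immune cell markers, 2 were lower in ♂M-1 and 5 in ♂M-3 relative to ZM-1, and their summed intensity ranged over 1943 to 1980 in ♂M-1, 1992 to 2107 in ♂M-3 and 2132 to 2401 in ZM-1. Of 13 fibroblast markers, 3 were lower in ♂M-1 and 10 in ♂M-3, and their sums ranged over 8325 to 8783, 7517 to 7556 and 8868 to 8883 in the same order. Each sum is mostly 1 gene and does not measure its list. Laptm5 averaged 1050 ± 50.4 for ♂M-1, 1166 ± 58.7 for ♂M-3 and 1207 ± 150 for ZM-1 (SD, n = 2 each). Vim, in the fibroblast sums, averaged 5196 ± 412, 5318 ± 89.9 and 5069 ± 90.8 in the same order. The fibroblast markers had a median log2 difference of −0.06 in ♂M-1 and −0.49 in ♂M-3 relative to ZM-1. In the comparison of ♂M-1 with ♂M-3, where Stat2 and some of the targets differed, 8 of 13 fibroblast markers were higher in ♂M-1 (median 0.52), 0 of 12 blood and immune cell markers passed, and 2 of 12 pluripotency markers were lower in ♂M-1. No intensity of any probe set fell below 3.421, so a value above 0 does not show that a marker transcript was present. Of the 13 fibroblast markers, 2 lay below the lower quartile in every array. The part of the blood, immune and fibroblast markers in the result was not tested. The lists of endothelial, trophectoderm and primitive endoderm markers had 1 of 5, 1 of 8 and 0 of 7 lower in ♂M-1, and 2, 1 and 1 lower in ♂M-3, with 1 trophectoderm marker higher in each. Comparing ♂M-1 with ♂M-3, the 3 lists had 1 endothelial marker lower and 1 primitive endoderm marker higher in ♂M-1. Of the 12 pluripotency markers, 1 was higher in ♂M-1 and 5 in ♂M-3 relative to ZM-1.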

How the data were processed

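Total RNA from 3 lines with 2 biological repeats each was hybridised to a whole-transcript array, and the deposited table gives 1 intensity per probe set and array on a linear scale. The submitters' processing notes name GCOS 1.4; how the authors corrected, summarised and normalized the values is not stated there (not given in the sources used here). Detection calls were not used. The number of arrays limits the precision, and p-values reflect the variation among repeats of a line, which are described only as biological.

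Of 35556 probe sets, 21789 carried 1 symbol in the platform annotation, 1621 several, and 12146 were unnamed here. Symbols were checked through Entrez IDs against RefSeq (GRCm38.p6), where 21698 matched and 0 changed. Each gene was represented by the probe set with the highest mean log2 value, giving 19938 genes, 999 of them chosen among several. With limma 3.58.1 (R 4.3.3), log2(intensity + 1) of the 6 arrays was modelled by line (3 residual and 6.03 prior degrees of freedom), with two-sided tests and Benjamini-Hochberg adjustment. The code was tested on simulated data.

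The genes and lists were chosen with earlier results of these data known. The text names all 9 genes, up to 4 called members of each list per comparison, and the 3 genes closest in profile to each called gene; other genes named were chosen after their values were seen. Neighbouring genes, motif windows and the crossed pairing were also added after seeing the data. Alternatives were the offset, quantile normalization, median centring, filters on low values, the mean of probe sets, a trended prior, fits of 2 lines, a replicate block and leaving out each array. Leaving out either array of the line not compared gives the same fit as the 2 compared lines alone. The tallies of alternatives therefore count that fit 3 times. Leaving out an array of a compared line lowered the number of all genes called, so shares from all 6 arrays do not apply to those counts.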

Additional observations from a re-analysis of the deposited data

How the results depend on the processing

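No result changed direction while past the threshold in any of the 15 alternatives of a comparison. Of 27 results for the 9 genes, 17 stayed on the same side of the threshold throughout, and of 87 results for other named genes, 48 did. The count of the 9 genes called for ♂M-3 against ZM-1, 3 as reported, came to 6 with an offset of 16 and to 5 among genes above the 50th percentile. That for ♂M-1 against ♂M-3, 1 as reported, came to 2 with an offset of 16, among genes above the 50th percentile, with a trended prior and in the fit of 2 lines. With 1 array left out, counts of the 9 genes ranged from 2 to 3 for ♂M-1 against ZM-1, stayed at 2 for ♂M-3 against ZM-1, and ranged from 0 to 2 for ♂M-1 against ♂M-3. Irf7 is below the 50th percentile and has no value there. Among all genes, 882 were called for ♂M-1 against ZM-1, 3162 for ♂M-3 against ZM-1 and 1303 for ♂M-1 against ♂M-3. A trended prior gave 1694 for the first and 1997 for the last. Leaving out 1 array gave 235 to 633, 1301 to 2749 and 357 to 1495. After median centring the share of higher calls was 56.5% in place of 42.9% for ♂M-1 against ZM-1, and 63.5% in place of 54.6% for ♂M-3 against ZM-1; among genes above the 50th percentile it was 61.9% and 67.5%. The cause of these changes was not tested. Replicate numbers are shared between lines, but repeats of the same number did not deviate together (r = 0.07, −0.10 and −0.03 over genes in the 3 comparisons). With the replicate number as a block, 686, 2768 and 1070 genes were called and 3, 2 and 1 of the 9, Ifnar2 being lost for ♂M-3 (adjusted p = 0.0714). With the numbers of ♂M-3 crossed, an alternative chosen after seeing the data, 3238 genes and 2 of the 9 were called for ♂M-3 against ZM-1.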
